A study of Homo sapiens with 6 samples.

Results

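Endoglin (ENG) and 9 genes of transforming growth factor beta (TGF-beta) and bone morphogenetic protein (BMP) signalling were examined in MDA-MB-231, a triple-negative breast cancer cell line in wide use. The 10 genes were ENG, TGFBR3, TGFB1, TGFB2, TGFBR1, ACVRL1, TGFBR2, BMPR2, SMAD3 and ID1, out of 22465 genes measured, and each was represented by its only transcript cluster with that single symbol. ENG was singled out because it was among the larger decreases in this same comparison, and the other 9 were taken as its ligands, partner receptors, transducer and target. The differences of these 10 genes are therefore a description, given with standard errors and without a test of single genes. Counts of members past a threshold are given only beside the share of all genes, and nothing is read from them.

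The DSM OE cells stably overexpressed a DAXX mutant in which both SUMO-interacting motifs were disabled, and the DAXX OE cells stably overexpressed wild-type DAXX. Both were made by lentiviral transduction and puromycin selection at 2 µg/mL, were kept for 24 h in complete DMEM, and contributed 3 arrays each. Total RNA (200 ng) was converted to biotinylated cRNA and hybridised to the GeneChip HTA 2.0, a 1-colour Affymetrix transcriptome array. The labels name 1 derived line per construct and no separate transductions. Both groups carried an introduced DAXX transgene, and cells with a control vector were not analysed here. The comparison is therefore between a line with mutant DAXX and a line with wild-type DAXX, and not against unmodified cells. The mutation, the derived line and the level of the transgene cannot be told apart in it.

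TGF-beta ligands bind a type II receptor kinase (TGFBR2), which activates a type I kinase (TGFBR1), and the pair phosphorylates SMAD2 and SMAD3, which enter the nucleus with SMAD4. BMP9 and BMP10 signal through another pair, BMPR2 and ACVRL1, towards SMAD1, SMAD5 and SMAD9 and targets such as ID1. Co-receptors without kinase activity, ENG and TGFBR3, present ligands to these pairs, ENG being best known from endothelial cells and TGFBR3 from the presentation of TGFB2. DAXX, a histone chaperone and transcriptional co-regulator, has been described to bind the TGF-beta type II receptor and SUMO-modified SMAD4.

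To place the members with the most negative and the most positive difference with all 6 arrays, ENG and TGFB1, their promoter windows are shown as the 250 bases before the RefSeq transcription start (GRCh38.p14, sense strand of the gene, 5′ to 3′). ENG lies on the minus strand at chr9:127854659-127854908 and TGFB1 on the minus strand at chr19:41353923-41354172. Capitals mark the GC box, GGGCGG on either strand.
ENG: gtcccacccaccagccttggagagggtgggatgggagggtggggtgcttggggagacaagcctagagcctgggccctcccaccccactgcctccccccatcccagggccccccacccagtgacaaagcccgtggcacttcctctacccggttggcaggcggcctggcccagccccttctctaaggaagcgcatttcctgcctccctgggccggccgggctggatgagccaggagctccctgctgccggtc
TGFB1: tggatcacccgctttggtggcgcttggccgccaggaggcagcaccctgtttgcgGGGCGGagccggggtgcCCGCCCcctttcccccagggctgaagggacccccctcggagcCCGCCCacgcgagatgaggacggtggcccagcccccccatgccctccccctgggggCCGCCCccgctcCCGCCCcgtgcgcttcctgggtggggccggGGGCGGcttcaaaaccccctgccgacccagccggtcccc
The TGFB1 window held 6 GC boxes and the ENG window 0, with a GC content of 76.8% for TGFB1 and 69.6% for ENG. The GC box was present in 42.6% of 35116 RefSeq windows of the same length. The letters CAGAC, a SMAD-binding element, were found in 38% of all windows, and the GC-rich SMAD motif GGCGCC in 16.4%, both searched on both strands, where matches of different motifs may share bases. Neither was in the ENG or the TGFB1 window. RefSeq windows were matched for 9 of the 10 members, all but ACVRL1. Among the other members, CAGAC was in 4 of 8 windows of TGFBR1, in 2 of 5 of SMAD3 and in the only window of TGFB2 and of BMPR2. It was absent from the only window of TGFBR3 and of ID1 and from the 2 windows of TGFBR2. The share of 38% is per window, and a gene with several windows has more chances of a match. These matches describe letters in a window and not bound sites.

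One array stood apart before any gene was considered. DAXX OE replicate 1 correlated with the other 5 arrays at r = 0.973 to 0.980 over genes, against 0.996 to 0.998 among those 5, and its signals had an SD of 1.63 over genes, against 1.82 to 1.85. Relative to DAXX OE replicates 2 and 3 its median deviation ran with signal level, between 0.33 (log2) in a bin of dim genes and -0.39 in a bin of bright genes. The difference of each member and of each named pathway gene is therefore given with all 6 arrays, without that array, and after cyclic loess normalization, which removes a trend with level and keeps all 6 arrays. Of the markers of this line, VIM, CD44, MSN, AXL and CAV1 read 9.47 to 11.91 on every array, and of the luminal genes ESR1, PGR and CDH1 read 3.53 to 6.01 and EPCAM and GATA3 6.75 to 7.87. DAXX itself read 9.31, 9.36 and 9.36 in DSM OE, against 8.68, 8.95 and 8.94 in DAXX OE, where the array does not separate introduced and endogenous transcripts. That difference of 0.49 (SE 0.10) was not past the threshold (limma, adjusted p = 0.416 over all genes) and passed it without DAXX OE replicate 1 (0.40, adjusted p = 0.0144). Over the 13 alternatives its adjusted p ranged up to 0.911, and after cyclic loess the difference was 0.37 (adjusted p = 0.0850). These values are from the brightest of several DAXX transcript clusters. The mean of its clusters differed by 0.29 with 6 arrays (limma, adjusted p = 0.666), the smallest difference of these alternatives.

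ENG, the homodimeric co-receptor, was the only member with lower signals on all DSM OE arrays than on all 3 DAXX OE arrays. Its log2 signal was 6.97, 6.97 and 6.89 in DSM OE, against 7.47, 7.35 and 7.38 in DAXX OE. The 3 DSM OE arrays lay below the 3 DAXX OE arrays, with a gap wider than the spread within either group. The means were 6.95 ± 0.05 in DSM OE and 7.40 ± 0.06 in DAXX OE (SD, n = 3 each), a log2 difference of -0.45 (SE 0.08) or 1.37-fold lower in DSM OE. The difference was -0.42 (SE 0.05) without DAXX OE replicate 1 and -0.50 (SE 0.07) after cyclic loess. In DAXX OE replicate 1 ENG deviated by 0.10 from replicates 2 and 3, and the median gene of like level by -0.03.

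TGFBR3, or betaglycan, the co-receptor that presents TGF-beta ligands to TGFBR2, followed a different course over the arrays. It read 7.57, 7.50 and 7.55 in DSM OE, against 7.35, 7.73 and 7.86 in DAXX OE. The groups overlapped because DAXX OE replicate 1 read below all DSM OE arrays while replicates 2 and 3 read above them. The difference was -0.11 (SE 0.14) with 6 arrays, -0.26 (SE 0.05) without DAXX OE replicate 1 and -0.19 (SE 0.08) after cyclic loess. Without DAXX OE replicate 3 it was -0.0029, so its size rests on single DAXX OE arrays.

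**Figure D1:**
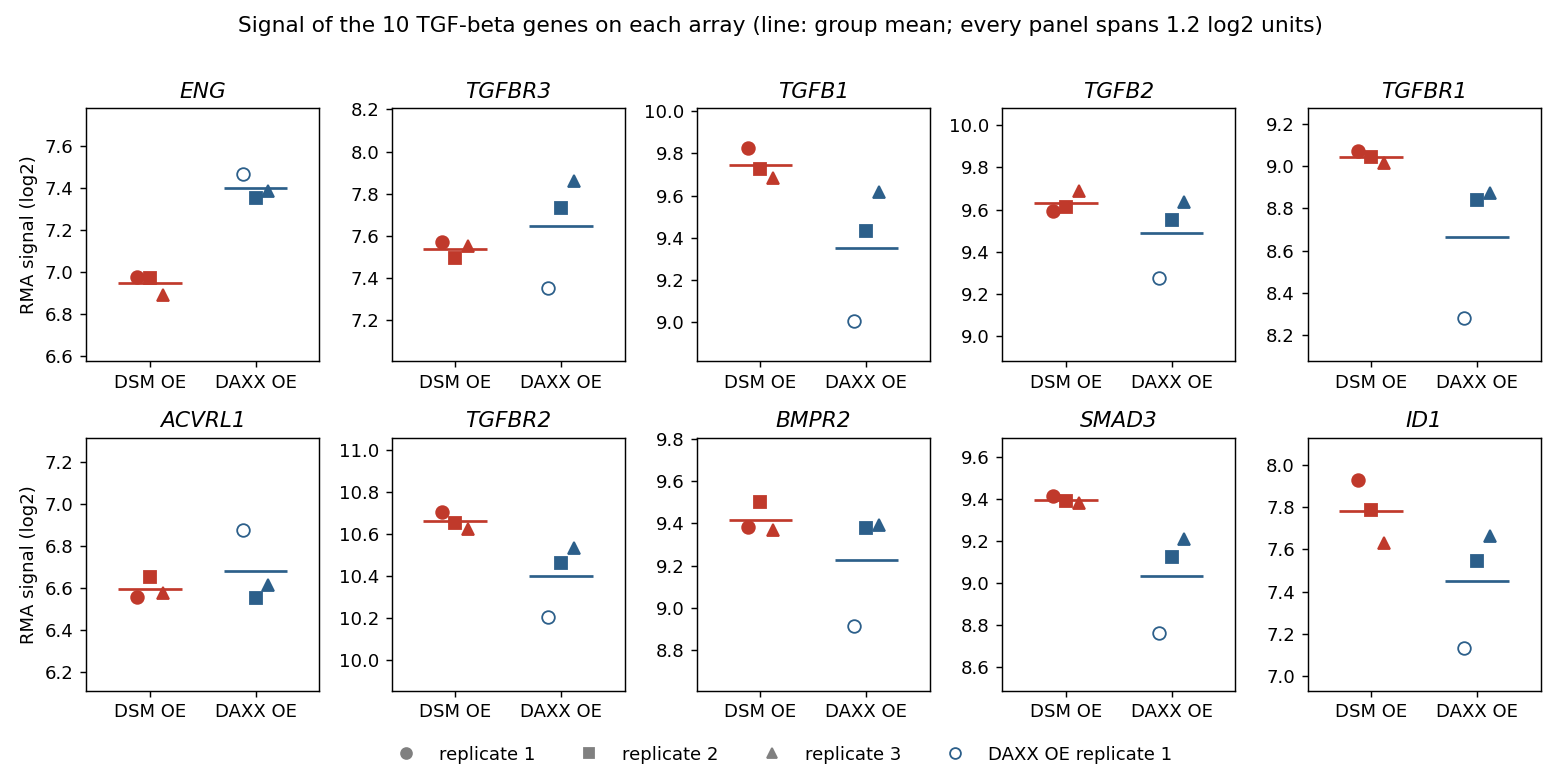
Log2 RMA signal of each of the 10 genes on every array, 1 panel per gene with its own signal axis, DSM OE left and DAXX OE right, with lines at the group means, a marker shape per replicate and an open circle for DAXX OE replicate 1. ENG sits at 6.89 to 6.97 in DSM OE, below 7.35 to 7.47 in DAXX OE, and for TGFB1, TGFBR1, TGFBR2 and SMAD3 the DSM OE arrays lie above the DAXX OE arrays.

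Of the ligands, TGFB1, the prototype TGF-beta, read 9.82, 9.73 and 9.68 in DSM OE, against 9.004, 9.43 and 9.62 in DAXX OE. Each DSM OE array read higher than each DAXX OE array, and DAXX OE replicate 1 was the lowest by a wide margin. The means were 9.74 ± 0.07 in DSM OE and 9.35 ± 0.31 in DAXX OE (SD, n = 3 each), a difference of 0.39 (SE 0.16) or 1.31-fold higher in DSM OE. It was 0.22 (SE 0.07) without DAXX OE replicate 1 and 0.28 (SE 0.08) after cyclic loess. TGFB2, the isoform that depends most on betaglycan for receptor binding, read 9.59, 9.61 and 9.69 in DSM OE, against 9.27, 9.55 and 9.64 in DAXX OE. Its groups overlapped, and its difference of 0.14 (SE 0.11) was 0.04 (SE 0.05) without DAXX OE replicate 1 and 0.03 (SE 0.05) after cyclic loess.

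Of the type I receptor kinases, TGFBR1, which phosphorylates SMAD2 and SMAD3, read 9.07, 9.05 and 9.02 in DSM OE, against 8.28, 8.84 and 8.87 in DAXX OE. The groups did not overlap, and DAXX OE replicate 1 again lay far below the other arrays. TGFBR1 averaged 9.04 ± 0.03 in DSM OE and 8.66 ± 0.33 in DAXX OE (SD, n = 3 each), with a difference of 0.38 (SE 0.16), 0.19 (SE 0.04) without DAXX OE replicate 1 and 0.27 (SE 0.08) after cyclic loess. ACVRL1, or ALK1, the type I receptor that binds BMP9 together with ENG, read 6.56, 6.65 and 6.57 in DSM OE, against 6.87, 6.55 and 6.61 in DAXX OE. It was the only member below the median gene level of 6.73, and its groups overlapped. Its difference was -0.08 (SE 0.11) with 6 arrays, 0.013 (SE 0.05) without DAXX OE replicate 1, a change of sign, and -0.07 (SE 0.08) after cyclic loess.

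Of the type II receptor kinases, TGFBR2, which binds TGF-beta directly, read 10.71, 10.65 and 10.63 in DSM OE, against 10.21, 10.46 and 10.53 in DAXX OE. The groups did not overlap. TGFBR2 averaged 10.66 ± 0.04 in DSM OE and 10.40 ± 0.17 in DAXX OE (SD, n = 3 each), with a difference of 0.26 (SE 0.10), 0.16 (SE 0.05) without DAXX OE replicate 1 and 0.15 (SE 0.05) after cyclic loess. BMPR2, the type II receptor for BMPs, read 9.38, 9.50 and 9.37 in DSM OE, against 8.91, 9.38 and 9.39 in DAXX OE. DAXX OE replicates 2 and 3 lay within the range of the DSM OE arrays and replicate 1 far below it, and the difference of 0.19 (SE 0.14) was 0.03 (SE 0.05) without that array and 0.07 (SE 0.07) after cyclic loess.

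SMAD3, the DNA-binding transducer activated by TGFBR1, read 9.41, 9.39 and 9.38 in DSM OE, against 8.76, 9.12 and 9.21 in DAXX OE. The 3 DSM OE arrays lay close together and read higher than all 3 DAXX OE arrays. SMAD3 averaged 9.39 ± 0.02 in DSM OE and 9.03 ± 0.24 in DAXX OE (SD, n = 3 each), 1.29-fold higher in DSM OE, with a difference of 0.36 (SE 0.13), 0.23 (SE 0.04) without DAXX OE replicate 1 and 0.25 (SE 0.05) after cyclic loess. ID1, an inhibitor of basic helix-loop-helix factors and a direct target of BMP-activated SMADs, read 7.93, 7.79 and 7.63 in DSM OE, against 7.13, 7.55 and 7.66 in DAXX OE. Its groups overlapped at their edges, with the lowest DSM OE array just under the highest DAXX OE array. The difference was 0.33 (SE 0.15) with 6 arrays, 0.17 (SE 0.09) without DAXX OE replicate 1 and 0.25 (SE 0.11) after cyclic loess.

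**Figure D2:**
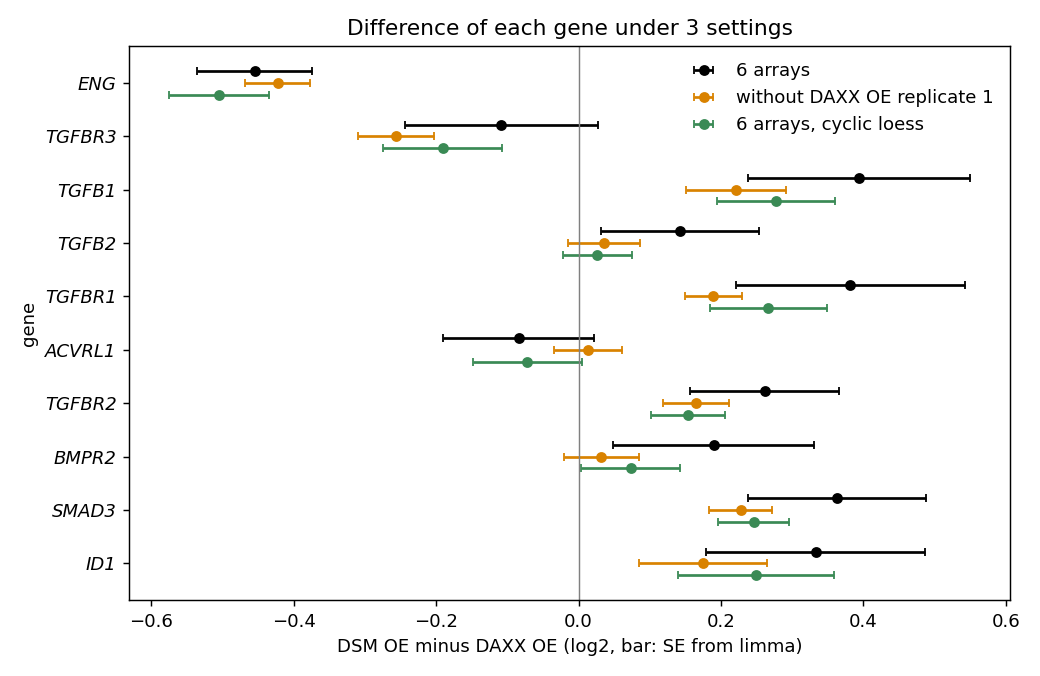
Log2 difference, DSM OE minus DAXX OE, of the 10 genes ordered by role, with bars of 1 SE, for all 6 arrays, without DAXX OE replicate 1 and after cyclic loess. ENG keeps a difference of -0.50 to -0.42 in the 3 fits, and those of TGFB1, TGFBR1, TGFBR2 and SMAD3 are smaller without DAXX OE replicate 1 than with it.

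Among themselves the members thus fell into a lower ENG, 4 genes of the TGF-beta branch with higher and non-overlapping signals in DSM OE (TGFB1, TGFBR1, TGFBR2 and SMAD3), and 5 genes whose groups overlapped. Non-overlap in 5 of the 10 members, 4 higher and 1 lower, stood beside 19.2% of all genes, 13.7% higher and 5.5% lower. Of genes above the median level 23.9% did not overlap, 21.7% higher and 2.23% lower. Since the members were chosen on this contrast, nothing is read from these counts or from those that follow. By limma's adjusted p under 0.05, 0 of the 10 passed with 6 arrays beside 0.0623% of all genes, and 0 by the methods' t-test after adjustment, beside 0.00445%. At an unadjusted p under 0.05 there were 5, beside 5.16%. With a fold beyond 1.3 as well there were 3 (2 higher and 1 lower), beside 2.25%, 1.74% higher and 0.503% lower. Without DAXX OE replicate 1 the adjusted count was 1 of the 10, beside 1.25% of all genes (0.872% higher and 0.374% lower). In those 5 arrays the non-overlapping members were ENG and TGFBR3 on the lower side and the same 4 TGF-beta genes on the higher side, beside 31.6% (18.1% higher and 13.5% lower). Under cyclic loess 0 of the 10 passed, beside 0.089%.

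The level trend of DAXX OE replicate 1 moved with these values. The median difference of the 10 members was 0.23, against 0.0062 for all genes and 0.10 for genes above the median level, where 9 of the 10 members lay. Without DAXX OE replicate 1 those medians were 0.10 for the members, 0.0040 for all genes and 0.0075 for genes above the median level. In that array TGFBR1 deviated by -0.58 from replicates 2 and 3, TGFB1 by -0.52 and SMAD3 by -0.40, where the median genes of like level deviated by -0.39, -0.28 and -0.28. TGFBR3, TGFB2, TGFBR2, BMPR2 and ID1 also deviated downwards, as the median genes of their level bins did, and ACVRL1 deviated upwards by 0.29, where the median gene of its bin deviated by 0.19. How much of each member's difference this trend accounts for was not tested.

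**Figure D3:**
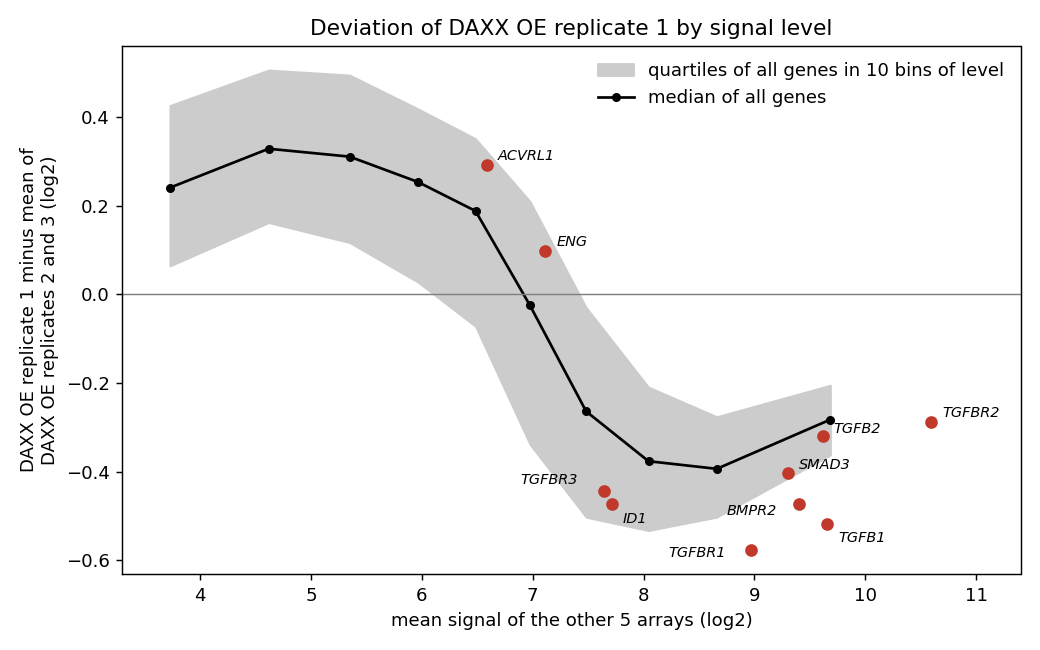
Deviation of DAXX OE replicate 1 from the mean of DAXX OE replicates 2 and 3 (log2) against the mean signal of the other 5 arrays, with the median (line) and quartiles (grey) of all genes in 10 bins of level and the 10 genes as points. ACVRL1 (0.29) and ENG (0.10) deviate upwards, and the other 8 genes deviate downwards by 0.29 to 0.58.

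All 10 genes read above the median of the 23 background probe sets (4.26 to 4.46 per array) on all 6 arrays, and none above the brightest background set (11.2 to 11.7). The median gene level of 6.73 was also above that background median, so this does not by itself show expression. Because ENG and ACVRL1 are best known from endothelial cells, 11 endothelial markers were examined as well. PECAM1, CDH5, KDR, TEK, TIE1, VWF, CLDN5, ERG, EMCN, ROBO4 and PLVAP read 3.53 to 7.85. EMCN was below the background median on every array, and the others were above it on every array. Their summed linear signal was 807 to 845 in DSM OE, against 853 to 920 in DAXX OE, and 0 of the 11 passed an adjusted p of 0.05 in limma, in the fit with DAXX OE replicate 1 and in the fit that leaves it out. With 6 arrays 2 of the 11 differences were positive and 9 negative (median -0.05), and without DAXX OE replicate 1, 6 were positive and 5 negative (median 0.00089). At an unadjusted p under 0.05 there was 1 of 11 with 6 arrays, or 9.09% beside 5.16% of all genes. It was CDH5, the endothelial cadherin, named after its values were seen. CDH5 differed by -0.31 (SE 0.09; limma, adjusted p = 0.682), by -0.32 without DAXX OE replicate 1 (limma, adjusted p = 0.138) and by -0.27 after cyclic loess. KDR, a VEGF receptor, differed by 0.14 (SE 0.10; limma, adjusted p = 0.682), 0.05 and 0.20 in these fits. Without DAXX OE replicate 1, 2 of 11 had an unadjusted p under 0.05, both lower, or 18.2% beside 15.1% of all genes. They were CDH5 and ROBO4, which differed by -0.13 with 6 arrays, -0.28 without DAXX OE replicate 1 (limma, adjusted p = 0.110) and -0.21 after cyclic loess. The summed signal of 6 fibroblast and pericyte markers was 315 to 333 in DSM OE, against 322 to 354 in DAXX OE. The labels name MDA-MB-231 for all 6 arrays and no other cell type, so these sums describe signals in cultures of that line and not numbers of endothelial cells or fibroblasts. The part of these markers in the ENG difference was not tested.

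Of 100 further genes of the TGF-beta and BMP pathway, 95 were measured under a single symbol, and the others were not analysed here. With 6 arrays 0 of the 95 passed an adjusted p of 0.05 in limma, 11 had an unadjusted p under 0.05, all higher in DSM OE, and 0 passed the methods' t-test after adjustment. Those 11 were 11.6% of the genes, beside 5.16% of all genes in either direction at that p, with 3.77% higher. Without DAXX OE replicate 1, 25 had an unadjusted p under 0.05, 18 higher and 7 lower, or 26.3% beside 15.1% of all genes (8.86% higher and 6.19% lower). In the same fit 4 passed the adjusted threshold, or 4.21% beside 1.25% of all genes: FST, SMAD2 and SMAD4 were higher in DSM OE and INHBB was lower. The transcript clusters of SMAD2 and SMAD4 both lie on chromosome 18, and whether genes of that chromosome differ together was not tested. Under cyclic loess 0 of the 95 passed. Their median difference was 0.08 with 6 arrays, 0.014 without DAXX OE replicate 1 and 0.04 after cyclic loess, against 0.0062, 0.0040 and -0.00088 for all genes. Of the 95, 66 lay above the median level, and all genes above that level had medians of 0.10, 0.0075 and 0.0042 in the same fits.

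The other SMADs and their regulators were the list in which all 21 differences were positive with 6 arrays (median 0.14). Beside them, 51.3% of all genes and 75.9% of genes above the median level were positive, and 20 of the 21 lay above that level. Without DAXX OE replicate 1, 14 were positive and 7 negative (median 0.04), or 66.7% positive beside 52.4% of all genes and 54.6% above the median level. After cyclic loess 16 were positive (median 0.05), beside 11176 of all 22465 genes. The same shares are the background for the sign counts of the lists below. SMAD2, the partner of SMAD3 downstream of TGFBR1, read 9.69, 9.66 and 9.65 in DSM OE, against 8.86, 9.35 and 9.35 in DAXX OE. The groups did not overlap, and SMAD2 was higher by 0.32 (SE 0.04; limma, adjusted p = 0.0241) without DAXX OE replicate 1, against differences of 0.48 (SE 0.14; limma, adjusted p = 0.682) with 6 arrays and 0.37 (limma, adjusted p = 0.149) after cyclic loess. SMAD4, the common partner that carries activated SMADs into complexes on DNA, read 9.21, 9.18 and 9.17 in DSM OE, against 8.46, 8.90 and 8.93 in DAXX OE. It also showed no overlap, with a difference of 0.27 (SE 0.04; limma, adjusted p = 0.0370) without DAXX OE replicate 1, 0.43 (SE 0.13; limma, adjusted p = 0.682) with 6 arrays and 0.31 (limma, adjusted p = 0.174) after cyclic loess. PMEPA1, a feedback inhibitor that sequesters SMAD2 and SMAD3, differed by 0.40 with 6 arrays (limma, adjusted p = 0.682), 0.31 without DAXX OE replicate 1 (0.0971) and 0.29 after cyclic loess (0.242), and passed in none of these fits.

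Among 16 other co-receptors, decoys and secreted antagonists 7 differences were positive and 9 negative, both with 6 arrays (median -0.06) and without DAXX OE replicate 1 (median -0.03), and the median was -0.05 after cyclic loess. FST, or follistatin, which traps activins, read 8.78, 8.79 and 8.87 in DSM OE, against 7.89, 8.45 and 8.50 in DAXX OE. The groups did not overlap, and FST was 1.27-fold higher in DSM OE without DAXX OE replicate 1 (0.34, SE 0.05; limma, adjusted p = 0.0329). Its difference was 0.53 (SE 0.16; limma, adjusted p = 0.682) with 6 arrays and 0.42 (limma, adjusted p = 0.242) after cyclic loess. DCN, or decorin, a proteoglycan that binds TGF-beta, read 3.72 to 3.87 in DSM OE, against 3.95 to 4.10 in DAXX OE, signals below the background median, with differences of -0.20, of -0.23 without DAXX OE replicate 1 and of -0.12 after cyclic loess, none past the threshold.

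The 23 genes for ligands, latency and activation had 15 positive and 8 negative differences both with 6 arrays (median 0.07) and without DAXX OE replicate 1 (median 0.05), and a median of 0.02 after cyclic loess. INHBB, the beta-B subunit of activin and inhibin, read 8.46, 8.55 and 8.51 in DSM OE, against 8.18, 8.81 and 8.96 in DAXX OE. DAXX OE replicate 1 read below the DSM OE arrays and the other DAXX OE arrays above them, as for TGFBR3. INHBB was lower in DSM OE, at -0.38 (SE 0.06; limma, adjusted p = 0.0446) without DAXX OE replicate 1, and its difference was -0.14 (SE 0.19; limma, adjusted p = 0.727) with 6 arrays, 0.010 without DAXX OE replicate 3 and -0.26 (limma, adjusted p = 0.541) after cyclic loess. GDF15, a divergent member of the TGF-beta family, differed by 0.31 with 6 arrays, 0.22 without DAXX OE replicate 1 and 0.27 after cyclic loess. BMP7, a BMP ligand, differed by -0.10 with 6 arrays, -0.03 without DAXX OE replicate 1 and -0.02 after cyclic loess, and neither gene passed in any of the 3 fits. Over the 13 alternatives the 4 genes FST, SMAD2, SMAD4 and INHBB each passed in 1, the fit without DAXX OE replicate 1, with adjusted p values up to 0.911 for FST, SMAD2 and SMAD4 and up to 0.974 for INHBB in the others.

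**Figure D4:**
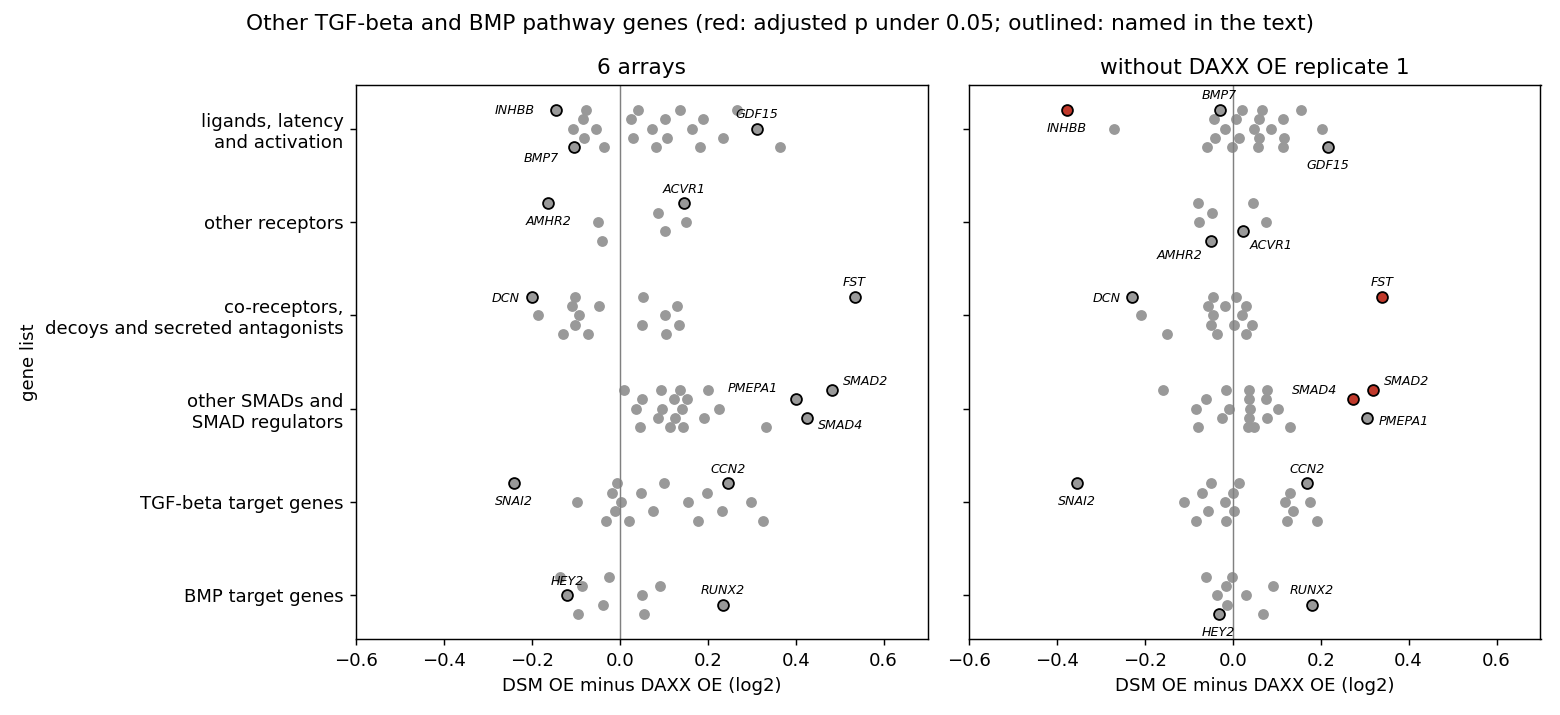
Log2 difference, DSM OE minus DAXX OE, of the 95 other pathway genes by list, with all 6 arrays (left) and without DAXX OE replicate 1 (right), 1 point per gene, red for an adjusted p under 0.05 and outlined where named in the text. All 21 points of the SMAD list are above 0 with 6 arrays and 14 of them without DAXX OE replicate 1, where FST, SMAD2 and SMAD4 passed on the higher side and INHBB on the lower.

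No other receptor and no target gene passed the threshold in the 3 fits. Of 7 other receptors 4 differed positively and 3 negatively with 6 arrays (median 0.09), against 3 and 4 without DAXX OE replicate 1 (median -0.05), and the median was 0.06 after cyclic loess. With 6 arrays ACVR1, a type I receptor for BMPs and activins, differed by 0.15 and AMHR2, the receptor for anti-Müllerian hormone, by -0.16. ACVR1 was at 0.02 without DAXX OE replicate 1 and 0.07 after cyclic loess, and AMHR2 at -0.05 and -0.10. Of 18 genes activated or repressed by TGF-beta, 12 differed positively and 6 negatively with 6 arrays (median 0.06). Without DAXX OE replicate 1, 10 differed positively and 8 negatively (median 0.0018), and the median was 0.05 after cyclic loess. CCN2, a matricellular protein and classical TGF-beta target, differed by 0.25 (SE 0.10; limma, adjusted p = 0.682) with 6 arrays, by 0.17 without DAXX OE replicate 1 and by 0.16 after cyclic loess. SNAI2, a repressor of epithelial genes, read 8.22, 8.31 and 8.40 in DSM OE, against 8.32, 8.63 and 8.69 in DAXX OE. Its groups overlapped only through DAXX OE replicate 1, and its difference was -0.24 (SE 0.12; limma, adjusted p = 0.682) with 6 arrays, -0.35 (SE 0.06; limma, adjusted p = 0.0565) without that array and -0.35 (limma, adjusted p = 0.158) after cyclic loess. Of 10 BMP target genes other than ID1, 4 differed positively and 6 negatively with 6 arrays (median -0.03) and without DAXX OE replicate 1 (median -0.0081), and 6 differed positively after cyclic loess (median 0.05). RUNX2, a bone transcription factor, was at 0.23 with 6 arrays, 0.18 without DAXX OE replicate 1 and 0.23 after cyclic loess. HEY2, a transcriptional repressor, was at -0.12 with 6 arrays, -0.03 without DAXX OE replicate 1 and -0.04 after cyclic loess.

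The profile of ENG over the 6 arrays was compared with that of each of 11231 genes above the median level, as the root mean square (RMS) difference of log2 signals after each gene was centred on its own mean. The closest were KIRREL3, an immunoglobulin-superfamily adhesion molecule (RMS 0.0572), GPER1, a G protein-coupled oestrogen receptor (0.0798), CSF3, the granulocyte growth factor G-CSF (0.0879), IGKV1D-39, an immunoglobulin kappa variable segment with near-identical relatives (0.0889), and NQO1, a quinone reductase (0.0925). The median gene had an RMS of 0.312. Over the 5 arrays without DAXX OE replicate 1 the closest were NALF1, NAP1L3, CSF3, PIK3R3 and CYLD, at 0.0219 to 0.0482, so that CSF3 was the 1 gene in both sets of 5. These ranks describe 6 arrays of 2 groups.

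**Figure D5:**
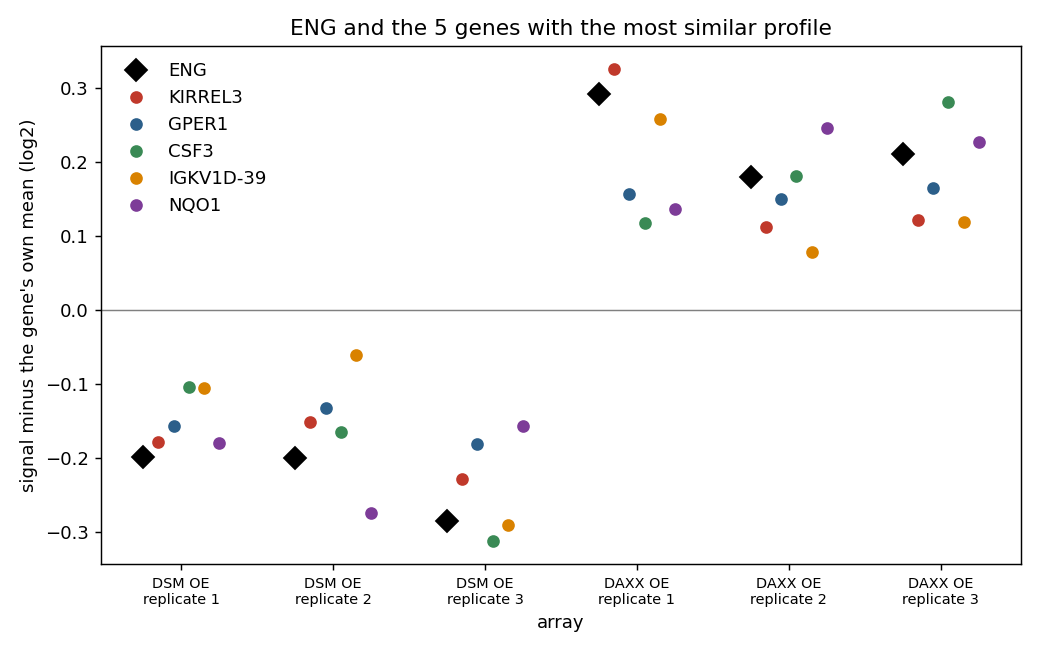
Log2 signal of ENG (diamonds) and of the 5 genes with the most similar profile (circles) on each array, minus the gene's own mean over the 6 arrays. All 6 genes lie below 0 on the 3 DSM OE arrays and above 0 on the 3 DAXX OE arrays, a pattern favoured by their choice for likeness to ENG on these arrays.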

How the data were processed

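Gene expression was measured in MDA-MB-231 cells (DSM OE and DAXX OE, 3 arrays each). The authors deposited log2 signals from robust multi-array averaging (RMA) of the HTA 2.0 probes, with Affymetrix Expression Console 1.3 named in the submitters' processing notes. RMA normalizes arrays together and compresses differences of dim genes. The study's methods describe a ComBat correction across collection times, and the sources used here do not say whether these arrays received it. No batch or scan date is labelled, the labels disagree on the culture vessel, and signals carry no counting depth, so the number of arrays limits the precision.

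Of 70523 rows, 23781 carried 1 gene symbol in the platform annotation, which gave 22465 genes, with 1 cluster per gene, the one of highest mean. DSM OE minus DAXX OE was fitted for all genes by limma's lmFit and eBayes (limma version 3.58.1, R version 4.3.3) with 2-sided p-values, Benjamini-Hochberg adjustment and a threshold of 0.05, after the script was tested on simulated data. SEs are limma's moderated SEs. Nothing in the labels ties the arrays of a group to separate transductions, so p-values measure only the spread between these samples, which may be technical. Named genes were the 10 members, DAXX, in each pathway list the genes past the threshold in either fit and the smallest unadjusted p in each direction, and the 5 profiles nearest to ENG. The members, lists and alternatives were chosen with earlier results of these data known. Other settings tried were a replicate block, each array left out in turn, a filter on dim genes, quantile, median and cyclic loess normalization, trended and robust moderation, the mean of a gene's clusters, stricter or fold-based thresholds, and the methods' t-test.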

Additional observations from a re-analysis of the deposited data

How the results depend on the processing

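Labels give both groups the replicate numbers 1 to 3, but same-numbered arrays deviated from their group means with correlations of -0.05, -0.30 and 0.17, so the numbers were not taken as pairs. With the replicate block 40 genes passed the threshold over all genes (32 higher and 8 lower), against 14 without it (13 higher and 1 lower), 0 of the 95 pathway genes passed, and the difference of ENG was -0.45.

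The count of 14 was 5 among genes above the median level, 7 under median centring (7 higher and 0 lower), 16 under quantile normalization (13 higher), 20 under cyclic loess (16 higher), 2 at an adjusted p under 0.01, 505 at 1.3-fold and an unadjusted p under 0.05, 247 at the same thresholds with the methods' t-test and 1 with that test after adjustment. It ranged between 1 and 280 with 1 array left out, 280 without DAXX OE replicate 1 and 1 to 3 without any other. The pathway count was 0 to 4 with 1 array left out, 4 at 1.3-fold and an unadjusted p under 0.05 and 3 with the methods' t-test at those thresholds.

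ENG was negative under all 13 alternatives, at -0.37 under median centring, which moves the median of all genes to 0.09, and at -0.48 to -0.42 with 1 array left out. Of these, the replicate block, the filter on dim genes, the trended and robust moderation and the cluster mean cannot alter a member's difference. Signs kept in those settings add nothing, for ENG or for the members that follow. TGFB1 (0.22 to 0.53), TGFBR1 (0.19 to 0.49), TGFBR2 (0.15 to 0.35), SMAD3 (0.23 to 0.45), ID1 (0.17 to 0.44), BMPR2 (0.03 to 0.27) and TGFB2 (0.03 to 0.23) kept a positive sign and TGFBR3 (-0.26 to -0.0029) a negative one. ACVRL1 changed sign without DAXX OE replicate 1 (0.013), and INHBB without DAXX OE replicate 3 (0.010), against -0.38 without DAXX OE replicate 1. The cause of these changes was not tested.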

Other observations

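The genes on either side of ENG in RefSeq gene order (GRCh38.p14) were examined after the data had been seen. FPGS, the nearest on one side, differed by 0.11 (limma, adjusted p = 0.682), with TOR2A at 0.09 and SH2D3C at -0.08 beyond it. On the other side AK1 differed by 0.08, the microRNA gene MIR4672 by -0.0087, and RNA5SP296, a ribosomal RNA pseudogene, by -0.45 (SE 0.36). RNA5SP296 read 7.77 in DAXX OE replicate 1, against 6.53 and 6.22 in replicates 2 and 3, and its difference was 0.014 without that array. None of these 6 neighbours passed the threshold with 6 arrays (0 at an unadjusted p under 0.05) or without DAXX OE replicate 1.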
